A study of Homo sapiens with 14 samples.

Results

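The ratio of heavy polysome mRNA to total mRNA was measured in MB-231-shNSi cells, the control cells of the study, for every gene with at least 10 counts in 2 or more of 4 libraries. These are the heavy polysome and the total mRNA library of each of 2 cultures, paired by culture. The rule kept 14641 of the 58434 gene symbols counted, or 25.1%. MDA-MB-231 is an established triple-negative, mesenchymal human breast cancer line. The shNSi cells are a stable lentiviral line with a non-silencing shRNA under a doxycycline-inducible promoter that also drives a red fluorescent marker, and both cultures received doxycycline at 1 µg/ml for 6 days. Both cultures therefore carry the vector and the drug, and no cells without them were compared here. The shNSi cultures were also sampled as a light and a moderate polysome pool, and the whole series holds 14 libraries, the others from cells with an shRNA against DAP5.

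Ribosomes load onto an mRNA one behind another, and the number an mRNA can carry depends on how often initiation succeeds, how fast ribosomes elongate and how long the coding sequence is. Centrifugation of a cytoplasmic lysate through a sucrose gradient separates mRNAs by that number, after cycloheximide has frozen the ribosomes in place. The heavy pool holds mRNAs with many ribosomes and is taken as well-translated mRNA, the light pool holds mRNAs with few, and their ratio to total mRNA is the translation efficiency of the study. The ratio describes where an mRNA sits on the gradient, so a short mRNA full of ribosomes can still be absent from the heavy pool. It is also taken over all cells of a culture, so fewer cells with an mRNA on heavy polysomes and fewer such copies per cell cannot be told apart.

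The 4 libraries held 28092151 and 30050488 counts in heavy polysomes and 28056227 and 27652311 in total mRNA, and all 14 libraries of the series ranged from 25899838 to 30795910. In total mRNA the mesenchymal marker VIM was at 5450 and 5318 CPM (counts scaled to equal library totals), the epithelial cadherin CDH1 and the hormone receptor ESR1 had at most 10 counts, and PGR had 0. Other epithelial markers were present, KRT18 at 619 and 614 CPM and EPCAM at 111 and 127 counts. ERBB2 was at 58.0 and 68.5 CPM and GATA3 at 12.7 and 12.4 CPM, so these were detected. The blood and endothelial markers PTPRC, CD3E and CDH5 had at most 1 count. The fibroblast markers were present, COL1A1 at 592 and 908 counts and PDGFRB at 33 and 30 counts. EIF4G2, the gene of DAP5, which the shRNA of the other cells targets, had 41918 and 38185 counts in total mRNA of the shNSi cultures and 15008 and 22127 in that of the shDAP5 cultures. Elsewhere CPM values are scaled by TMM over the 4 libraries, and since they are not divided by length they compare libraries and not genes.

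Genes were called in both directions between heavy polysomes and total mRNA, and their number depended on the test. Of 14641 genes, 8439 differed at an adjusted p under 0.05 in the paired edgeR test, or 57.6%, with 4028 higher in heavy polysomes (27.5%) and 4411 lower (30.1%). The log2 heavy-to-total ratio had a median of -0.06 and an SD over genes of 0.85, with the 5th and 95th percentiles at -1.63 and 1.06. The distribution had a longer lower arm, with 2478 genes (16.9%) below a log2 ratio of -1 and 1014 (6.93%) above 1. The direction was the same in both cultures for 12308 genes (84.1%), and across genes, which are not independent replicates, Pearson's r between the cultures was 0.81. The zero of the ratio depends on the scaling. With library size in place of TMM the median of all genes shifted by -0.27 and the calls split into 2514 higher and 6026 lower, and with each fraction quantile normalized separately and limma, after the methods of the study, the shift was -0.25 and the split 2539 and 6091. DESeq2 called 6198 genes (42.3%) and the fit of all 14 libraries 6563 (44.8%), and without a filter on low counts 7962 of 25568 genes (31.1%) were called. Without a term for culture 3408 genes were called (23.3%), and with the lone culture 1 or the lone culture 2 tested against the spread of the shDAP5 cultures 2545 and 4011 were. With 2 cultures in a group, every value is known with limited precision.

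**Figure D1:**
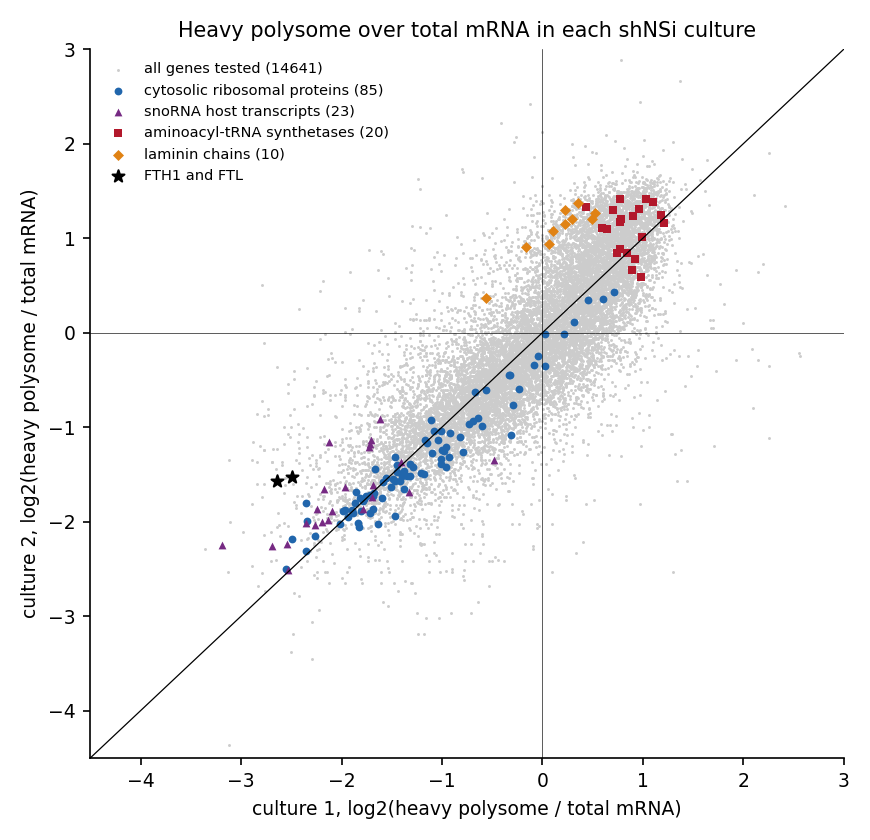
Log2 heavy-to-total mRNA ratio in culture 1 (x axis) and in culture 2 (y axis), 1 point per gene, with 4 gene lists and the ferritin mRNAs coloured and the line of equality drawn. Of the 14641 genes 1 lies outside the axes, 84.1% have the same sign in both cultures, the 10 laminin chains lie above the line and the ferritin mRNAs stand apart with a lower ratio in culture 1.

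The filter has edges that bear on the lower arm. The second highest of the 4 counts was 10 in 218 genes just inside the rule and 9 in 224 genes just outside it, and without the filter the median log2 ratios of these were -0.57 and -0.37. Of the genes kept, 27 reached the minimum in both heavy libraries and in neither total library, and 580 reached it in both total libraries and in neither heavy library. These had to differ and are no support for a direction.

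The ratio followed the length of the coding sequence, taken from the principal transcript of GENCODE v29 for 12206 protein-coding genes. Spearman's rho between length and the log2 ratio was 0.64 across these genes (0.50 in culture 1 and 0.71 in culture 2), as a description without a test, since all genes share the same 4 libraries. The corresponding rho was 0.16 for the 3′ UTR, 0.00 for the 5′ UTR, -0.18 for the GC content of the coding sequence and 0.14 for the level in total mRNA. For coding sequences under 300 nt the median log2 ratio was -1.58 over 218 genes, of which 205 were lower and 1 higher in heavy polysomes. From 300 to 600 nt it was -1.08 over 1239 genes, of which 1071 were lower and 3 higher. The median was near 0 between 900 and 1200 nt, at -0.09, and reached its highest value of 0.66 between 3000 and 4500 nt, where 682 of 1048 genes were higher and 47 lower. At 6000 nt and over it was 0.57, with 199 of 340 genes higher and 5 lower. With library size in place of TMM or with quantile normalization, the median between 1200 and 1500 nt turned from 0.14 to -0.12 or -0.10.

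The cultures differed along the length scale, with the widest gap between their medians in the longest class. Between 900 and 1200 nt the median log2 ratio was 0.06 in culture 1 and -0.23 in culture 2. In culture 1 the median log2 ratio was 0.46 between 2000 and 3000 nt and 0.16 at 6000 nt and over, whereas in culture 2 it was 0.61 and 0.99. The lists of long mRNAs described further on share this gap between the cultures, and their values are given per culture.

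**Figure D2:**
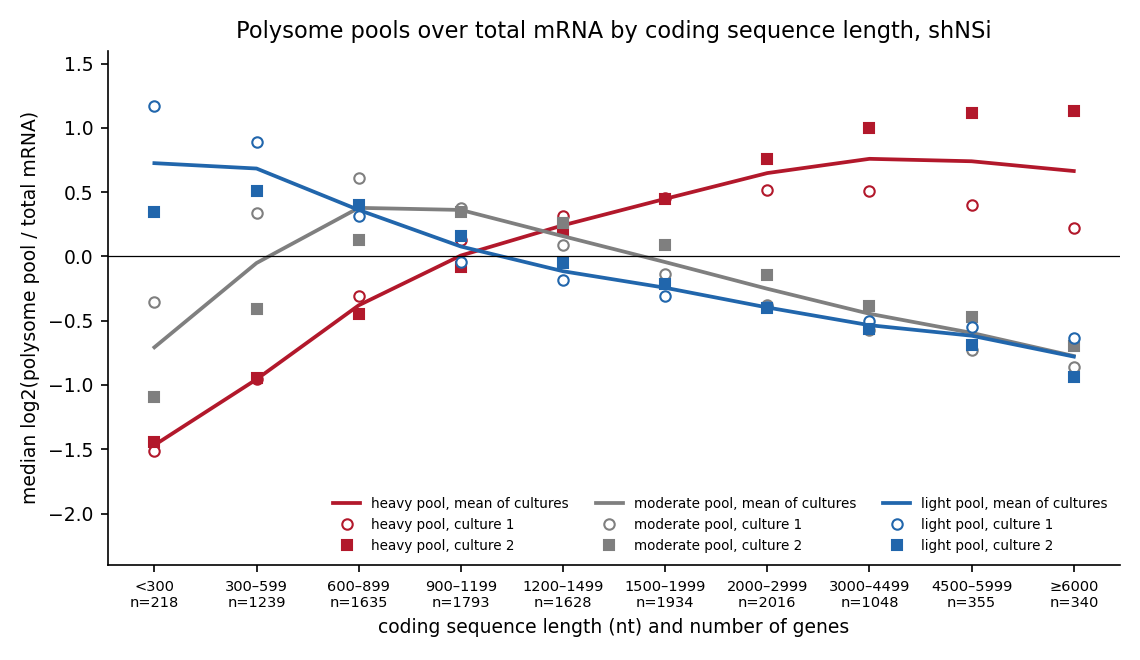
Median log2 ratio of the heavy, moderate and light polysome pools to total mRNA (y axis) for 10 classes of coding sequence length in nt (x axis, with the number of genes), as the mean of the cultures (lines) and in each culture (open circles culture 1, filled squares culture 2), all scaled over the 8 shNSi libraries. The heavy pool climbs from -1.47 in the shortest class to 0.76 between 3000 and 4500 nt, the light pool falls from 0.73 to -0.78, and the cultures lie farthest apart in the heavy pool in the longest class.

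Exceptions to the length pattern were few at the short end. Of 1457 genes with a coding sequence under 600 nt, 1276 were lower in heavy polysomes and 4 were higher. These 4, named here after their values were seen, are INAFM1 (log2 ratio 0.52 ± 0.22 SE), IGIP (0.67 ± 0.23), PSPN (0.92 ± 0.19), which encodes the growth factor persephin, and KCNE5 (1.48 ± 0.53), a potassium channel subunit. All 4 lost the call without a term for culture, and over all alternatives that gave a value INAFM1 lost it in 8 of 9, KCNE5 in 6 of 8, IGIP in 5 of 9 and PSPN in 2 of 9. KCNE5, at 11 and 21 counts in heavy polysomes and 4 and 9 in total mRNA, is 1 of the 27 genes that reached the minimum in the heavy libraries alone, so its call is no support for a direction. It overlaps ACSL4 on the same strand, itself among the highest genes, and how reads shared by both were counted is not given in the sources used here.

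At the long end, 1743 genes had a coding sequence of 3000 nt or over, of which 1109 were higher and 59 lower. ITGAE, the integrin alpha E chain of intraepithelial lymphocytes, was at 5.67 and 7.90 CPM in heavy polysomes against 33.1 and 32.8 in total mRNA, a log2 ratio of -2.29 ± 0.20 (adjusted p = 9.5e-11). The other long mRNAs with the lowest ratios, also named after their values were seen, were CAMTA1 at -1.53, WDR72 at -1.22, PTPRN2 at -1.20, EMILIN2 at -1.02 and ROBO3 at -0.89. Their levels in total mRNA lay between 15.7 and 32.2 CPM. Counts per gene do not show which transcript was present, so the length of the annotated principal transcript need not be that of the mRNA counted.

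The protein-coding genes with the highest ratios included adhesion receptors, transport factors and membrane proteins. ITGAV, the integrin alpha V chain of vitronectin receptors, was at 71.6 and 104 CPM in heavy polysomes and at 33.1 and 29.9 CPM in total mRNA. Both heavy libraries were above both total libraries, with a log2 ratio of 1.45 ± 0.20 (adjusted p = 4.5e-07). ITGB1, the beta 1 chain that pairs with many alpha chains, was at 859 and 1343 CPM in heavy polysomes against 417 and 397, a ratio of 1.40 ± 0.25 (adjusted p = 1.8e-05). TNPO1, the nuclear import receptor transportin 1, was at 394 and 371 CPM against 163 and 119, a ratio of 1.46 ± 0.23, and CSE1L, which returns importin alpha to the cytoplasm, was at 896 and 1296 CPM against 381 and 435, a ratio of 1.40 ± 0.24. The highest ratio among called protein-coding genes with at least 10 CPM in total mRNA was that of the actin bundling protein PLS1, at 1.50 ± 0.19, from 39.0 and 40.8 CPM in heavy polysomes and 14.5 and 13.7 CPM in total mRNA. The rest of the highest 10 were LRRC40 (1.45), the lysosomal membrane protein LAMP2 (1.45), the ISG15 ligase HERC5 (1.42), the fatty acid ligase ACSL4 (1.41) and TM9SF2 (1.40). Their coding sequences ran from 1233 nt for LAMP2 to 3147 nt for ITGAV. The calls of TNPO1, ITGAV, ACSL4 and ITGB1 were lost when culture 1 stood alone.

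**Figure D3:**
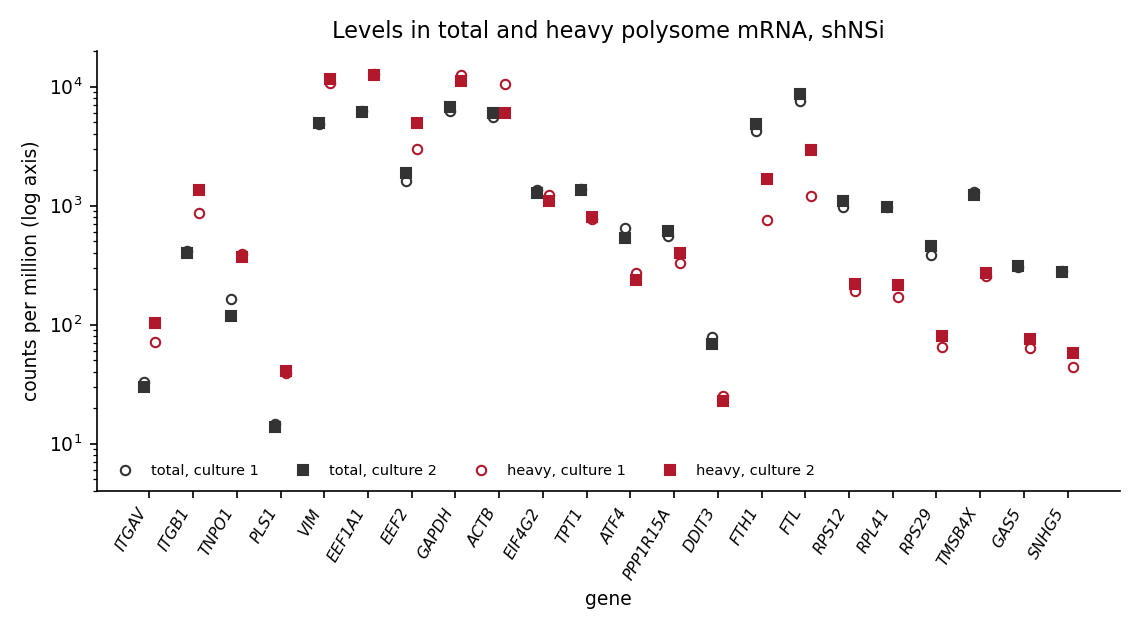
CPM on a log axis for 22 genes in total mRNA (grey) and heavy polysome mRNA (red) of culture 1 (open circles) and culture 2 (filled squares). Heavy polysome levels lie above total levels in both cultures from ITGAV to GAPDH and below them from EIF4G2 to SNHG5, and for ACTB the fractions overlap.

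The lowest ratios belonged to very short mRNAs. COPS9, a subunit of the COP9 signalosome, was at 8.38 and 11.2 CPM in heavy polysomes and at 52.9 and 59.5 CPM in total mRNA, a log2 ratio of -2.53 ± 0.20. RPS29 was at 65.0 and 80.7 CPM against 382 and 458, also -2.53 (± 0.24), and RPL41 at 172 and 216 CPM against 968 and 981, -2.34 ± 0.25. The actin-sequestering peptide thymosin beta 4, encoded by TMSB4X, was at 258 and 274 CPM against 1301 and 1235, -2.25 ± 0.25. The others of the lowest 10 were RPS12 (-2.33), COMMD6 (-2.32), SELENOW (-2.30), the oligosaccharyltransferase subunit OST4 (-2.30), ITGAE (-2.29) and C19orf33 (-2.28). All adjusted p-values were 3.0e-09 or lower, and all 10 calls were kept under every alternative run. Other than ITGAE they have coding sequences of 78 to 399 nt, and 3 of these are shown whole, with start and stop codons in capitals, because of their shortness (GENCODE v29, GRCh38, coding strand).
RPL41: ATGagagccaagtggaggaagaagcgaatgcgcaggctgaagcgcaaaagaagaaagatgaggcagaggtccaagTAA
OST4: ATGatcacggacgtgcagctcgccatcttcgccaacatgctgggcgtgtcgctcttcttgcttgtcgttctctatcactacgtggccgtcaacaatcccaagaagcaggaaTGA
TMSB4X: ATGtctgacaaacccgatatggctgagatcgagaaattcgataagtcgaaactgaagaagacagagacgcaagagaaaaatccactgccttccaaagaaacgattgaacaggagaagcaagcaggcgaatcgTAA
The coding sequence is 78 nt in RPL41, 114 nt in OST4 and 135 nt in TMSB4X. In the light pool the cultures took opposite signs, with log2 ratios of light pool to total mRNA in cultures 1 and 2 of 0.63 and -0.31 for RPL41, 0.95 and -0.05 for OST4 and 0.99 and -0.58 for TMSB4X.

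Gene lists were described by their counts and their medians. These are to be read beside all genes, of which 27.5% were higher and 30.1% lower, with a median log2 ratio of -0.06. Each protein-coding list was also set against protein-coding genes of like coding length. The measure was the difference of each gene from the median of its class among 40 classes of equal size. A value of 0 on that scale is the level usual for the length. In 12 of the lists edgeR called no gene in 1 of the directions. At an unadjusted p under 0.05 the count there was also 0 in these lists except for HSPB1 among the cytosolic chaperones, and DESeq2 called none. Under quantile normalization limma called 1 gene lower in each of 5 of them (the cytosolic chaperones, the glycolysis enzymes, the actins and tubulins, the collagens and the examples of the study).

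Most cytosolic ribosomal protein mRNAs were lower in heavy polysomes than in total mRNA. Of 85 tested, 72 were lower, 12 were not called and 1, RPL4, was higher, with a median log2 ratio of -1.42 (-1.35 in culture 1 and -1.46 in culture 2). RPL4, whose coding sequence of 1284 nt is the longest of the list, was at 2167 and 1869.7 CPM in heavy polysomes and at 1318 and 1385 CPM in total mRNA (log2 ratio 0.58 ± 0.24, adjusted p = 0.039), and it lost the call in 6 of the 9 alternatives. RPL8, at 1992 and 1828 CPM against 1961 and 2336, overlapped between the fractions. The median difference of the list from genes of like length was -0.34, with 63 members below and 22 above their class. In the direct comparison of the pools 68 of 85 were lower in heavy than in light polysomes and 3 higher, against 32% lower and 29.6% higher of all 14852 genes tested there. Without culture 2 the count of lower calls was 36, and without culture 1 it was 53. Many ribosomal protein genes, like FTH1, FTL, EEF1A1, TMSB4X, the actins and the tubulins, have near-identical processed pseudogenes or paralogs, and how reads shared with these were counted is not given in the sources used here.

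Ribosomal protein mRNAs are known to begin with a terminal oligopyrimidine tract (TOP), a C at the cap followed by pyrimidines, through which mTOR signaling controls their translation, and so do mRNAs of several translation factors. The starts below show that the tract is shared by mRNAs with low and with high fitted ratios. They are the first 20 bases downstream of the RefSeq start (GRCh38.p14), with the tract in capitals.
RPS12 (chr6:132814569-132814588, plus strand): CTCTTTCCCTgccgccgccg
RPS21 (chr20:62387103-62387122, plus strand): CCTTTCTCTCTCgcgcgcgg
RPLP1 (chr15:69452818-69452837, plus strand): CCCCTTTCCTCagctgccgc
RPL41 (chr12:56116633-56116652, plus strand): CTCTCggccttagcgccatt
TPT1 (chr13:45341164-45341183, minus strand): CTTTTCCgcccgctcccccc
EEF1A1 (chr6:73521013-73521032, minus strand): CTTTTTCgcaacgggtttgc
EEF2 (chr19:3985444-3985463, minus strand): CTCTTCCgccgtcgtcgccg
EEF1A1, which delivers aminoacyl-tRNA to the ribosome, was at 12769 and 12517 CPM in heavy polysomes and 6249 and 6149 CPM in total mRNA, a log2 ratio of 1.03 ± 0.25 (adjusted p = 6.6e-04). EEF2, the translocase, was at 2961 and 4935 CPM against 1599.8 and 1869.9, a ratio of 1.14 ± 0.25. TPT1, translationally controlled tumor protein, was on the other side, at 775 and 799 CPM against 1376 and 1361, a ratio of -0.80 ± 0.24 (adjusted p = 0.0046). EEF1A1 and TPT1 each lost the call in 3 of the 9 alternatives, among them the leaving out of either culture, and EEF2 lost it with culture 1 alone. The poly(A)-binding protein mRNA PABPC1 was not called, at 1100.1 and 1262 CPM against 1622 and 1275.

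The other mRNAs listed as TOP mRNAs encode translation factors and further proteins, among the latter NACA, TPT1, BTF3, NPM1 and HNRNPA1. Of these 17 mRNAs, 5 were higher (EEF2, EIF3E, EEF1A1, EIF4B and EIF3L) and 4 lower (NACA, TPT1, EEF1B2 and BTF3). These shares are near the 27.5% and 30.1% of all genes. A tract stood at the RefSeq start of 10 of the 17, EEF1B2 had none there, and 6 had no start in that table. The median of 0.20 was 0.51 in culture 1 and -0.07 in culture 2, and it turned to -0.06 under library size and under quantile normalization. The lower calls numbered 2 without culture 1 and 0 without culture 2 (1 at an unadjusted p under 0.05). The higher ones have coding sequences of 1338 nt or more and the lower ones of 678 nt or less. A C followed by 4 pyrimidines opened 1104 of 27305 RefSeq starts (4.04%) and 44 of 68 ribosomal protein genes with a start in that table. Genes tested with this start that encode no ribosomal protein numbered 475, with a median log2 ratio of 0.05, 151 higher and 136 lower. The 9272 tested genes without it had a median of 0.08, with 2977 higher and 2340 lower.

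Of 34 translation initiation factors 15 were higher and 7 lower. The median of 0.12 was 0.41 in culture 1 and -0.09 in culture 2, and it turned to -0.14 under library size and -0.15 under quantile normalization. Library size gave 10 higher and 12 lower, and quantile normalization 11 higher and 12 lower. The higher calls fell to 4 without a term for culture, 8 without culture 1 and 9 without culture 2, and the lower ones to 4 and 2 without culture 1 and culture 2. The 15 have coding sequences of 948 to 4800 nt and include the eIF3 subunits EIF3D (1.10 ± 0.24), EIF3A (1.06), EIF3B (1.01) and EIF3C (1.00), the GTPase EIF5B (1.05) and the scaffold EIF4G1 (1.03). The 7 have 342 to 738 nt and include the start codon factor EIF1 (-1.57), the cap-binding protein EIF4E (-1.07), its inhibitors EIF4EBP1 (-1.61 ± 0.20) and EIF4EBP2 (-0.80), and EIF5A (-0.95). EIF4G2, the mRNA of DAP5 itself, was not called at 1221 and 1102 CPM in heavy polysomes against 1341 and 1282 in total mRNA (log2 ratio -0.18 ± 0.24, adjusted p = 0.54). Its value was 0.81 below genes of like coding length, and its log2 ratio to total mRNA was 0.55 in the moderate pool.

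Mitochondrial mRNAs made in the nucleus lay low in the heavy pool. Of 78 mitochondrial ribosomal proteins 47 were lower and 7 higher (median -0.66), from MRPL33 at -2.02 ± 0.20 to MRPS27 at 0.82 ± 0.22. The lower calls fell to 27 without culture 1 and 14 without culture 2, and the higher ones to 3 with library size, 1 without a term for culture and 1 without culture 1. Their median difference from genes of like length was 0.15, so the list sat slightly above its length class, whereas the cytosolic ribosomal proteins sat below theirs. Of 64 nuclear-encoded respiratory chain subunits 48 were lower and 7 higher (median -1.20), with a difference from length of 0.01, and without culture 2 the lower calls fell to 25. Of these 64, 3 reached the count minimum of the filter in both total libraries and in neither heavy library, so these had to differ. Of the 61 that reached it in every library 46 were lower and 7 higher (median -1.18). UQCR10 of complex III, with 192 nt, had -1.98 ± 0.20, and NDUFS1 of complex I, with 2184 nt, had 1.22 ± 0.22. Messages encoded by the mitochondrial genome were not analysed here.

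Several enzyme and chaperone lists were higher almost throughout. All 20 aminoacyl-tRNA synthetases, the enzymes that charge tRNA, were higher in heavy polysomes, from YARS at 0.78 ± 0.23 to RARS at 1.24 ± 0.23, with a median of 0.98 that was 0.49 above genes of like length. TARS was at 942 and 1159 CPM in heavy polysomes against 462 and 433 in total mRNA. The 20 calls were also made under DESeq2, library size and quantile normalization, and 14 were made without a term for culture. Of 19 cytosolic chaperones 17 were higher and none lower (median 1.19, 0.75 above length), among them HSPA8 at 6562 and 8582 CPM against 3153 and 3397 (1.20 ± 0.25), HSPH1 (1.33 ± 0.24), HSP90AA1 (1.32) and the chaperonin subunit CCT8 (1.29). The exceptions were DNAJB1 (0.44) and the small heat shock protein HSPB1 (-0.48, adjusted p = 0.063). Both lists kept at least 14 higher calls under every alternative run.

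Of 17 glycolysis enzymes 15 were higher and none lower (median 1.00, 0.70 above length). GAPDH was at 12493 and 11125 CPM in heavy polysomes against 6213 and 6768 (0.86 ± 0.25, adjusted p = 0.0035), PGK1 had 1.25 ± 0.24, and TPI1, with 750 nt the shortest coding sequence of the list, had -0.42 ± 0.24 and was not called. Of 13 actins and tubulins 11 were higher and none lower (median 0.89, 0.77 above length). ACTB was at 10524 CPM in the heavy library of culture 1 and at 5962 in that of culture 2, against 5499 and 6038 in total mRNA, so that its ratio was 0.94 in culture 1 and -0.02 in culture 2 (adjusted p = 0.13). VIM, the mesenchymal intermediate filament, was at 10700.5 and 11652 CPM against 4890.2 and 4935 (1.18 ± 0.25, adjusted p = 1.4e-04). GAPDH lost the call under quantile normalization and without either culture, and VIM under quantile normalization. With quantile normalization 9 glycolysis enzymes and 6 actins and tubulins were called higher, and without culture 1 the counts were 7 and 4.

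Of 37 proteasome mRNAs 13 were higher, 4 lower and 20 not called. The median of 0.05 was 0.34 in culture 1 and -0.15 in culture 2, and it turned to -0.21 under library size and -0.20 under quantile normalization. The higher calls fell to 5 without a term for culture and 4 without culture 1, and the lower ones to 1, 1 and 0 without that term, without culture 1 and without culture 2 (1 at an unadjusted p under 0.05 in the last). Library size gave 5 higher and 10 lower. The 13, of 933 to 2862 nt, were 12 subunits of the regulatory particle, led by PSMD1 (1.20 ± 0.23), PSMD12 (1.14) and PSMD2 (1.13 ± 0.24), and its assembly chaperone PSMD5 (0.92). The lower ones, of 606 to 720 nt, were the core beta subunits PSMB6 (-0.72), PSMB9 (-0.68) and PSMB2 (-0.54) and the assembly factor PSMD9 (-1.0 ± 0.18), which lost the call without either culture. The list was 0.38 above genes of like length, with 33 of 37 above their class, and its median in the moderate pool was 0.60.

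**Figure D4:**
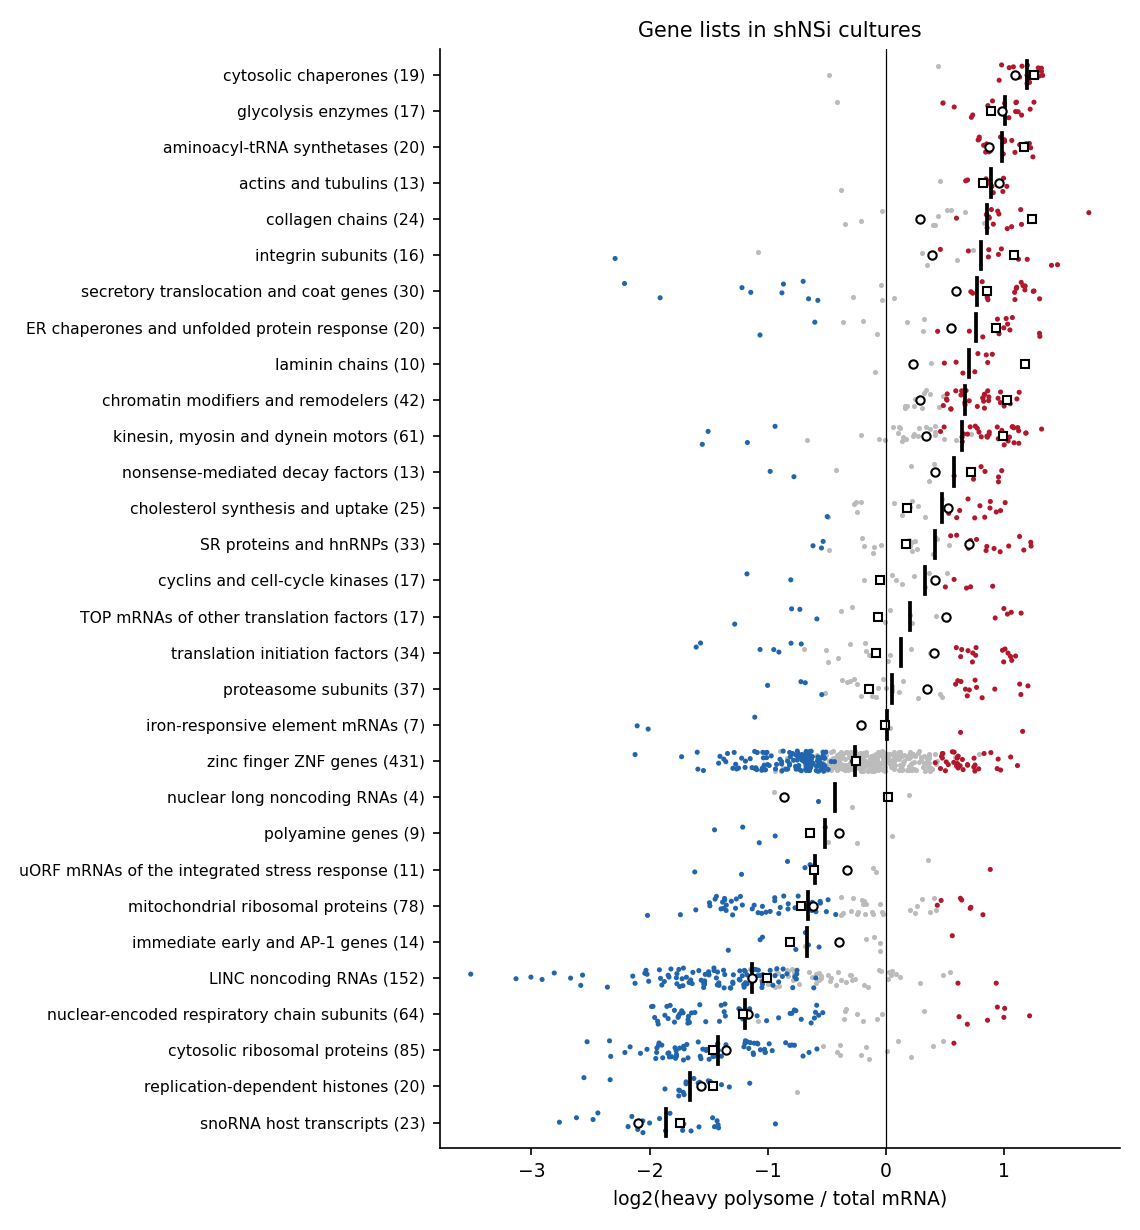
Log2 heavy-to-total mRNA ratio (x axis) for the genes of each list (rows, with the number tested), in red where higher and in blue where lower at an adjusted p under 0.05 and grey where not called; black bars are medians of the list, open circles medians in culture 1 and open squares in culture 2. Lists run from snoRNA host transcripts at a median of -1.86 to cytosolic chaperones at 1.19, and the circles and squares lie apart for the laminin, collagen, integrin, motor, chromatin and nuclear noncoding lists.

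Noncoding transcripts were low in heavy polysomes. Of 521 annotated long noncoding RNAs 372 were lower and 5 higher (median -1.22). Of the 521, 89 reached 10 counts in both total libraries and in neither heavy library and so had to differ, and of the 336 with 10 counts in every library 257 were lower. All 23 snoRNA host transcripts, whose introns carry small nucleolar RNAs and whose spliced exons mostly encode no conserved protein, were lower, from SNHG19 at -2.76 to SNHG11 at -0.94 (median -1.86). GAS5 was at 63.2 and 76.0 CPM in heavy polysomes against 304 and 311 in total mRNA (-2.15 ± 0.23, adjusted p = 2.2e-09), and SNHG5 at 43.8 and 57.3 CPM against 284 and 275 (-2.48 ± 0.23). ZFAS1 had -2.18 ± 0.22. In the light pool GAS5 was above total mRNA, with a log2 ratio of 0.59, and all 23 were lower in heavy than in light polysomes. At least 19 of the 23 were called lower under every alternative. Of 152 LINC transcripts 101 were lower and 2 higher (median -1.14), and of the 98 with 10 counts in every library 69 were lower (median -1.05). The lower calls numbered 51 with DESeq2, 44 without a term for culture, 67 with all 14 libraries in 1 fit and 47 and 42 without culture 1 and culture 2. LINC00116, which is known to encode a mitochondrial micropeptide, was at 6.89 and 7.68 CPM against 27.0 and 32.4 (-2.02 ± 0.19), with a ratio of the light pool to total mRNA of 1.02.

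The 5 long noncoding RNAs called higher, named after their values were seen, were LINC01963 (0.93), BACE1-AS (0.86), MIR600HG (0.84), LINC02035 (0.61) and PINK1-AS (0.52), and none was called without a term for culture. BACE1-AS overlaps the tested coding gene BACE1 on the other strand, MIR600HG overlaps STRBP on its own strand, and PINK1-AS overlaps PINK1 on the other strand and DDOST on its own. Of the nuclear RNAs, NEAT1 and MALAT1 were uneven between the cultures. NEAT1, the scaffold of paraspeckles, was at 16.2 CPM in the heavy library of culture 1 and 49.8 in that of culture 2 against 61.5 and 50.3 in total mRNA (-0.95 ± 0.61, adjusted p = 0.29). MALAT1, of nuclear speckles, was at 6.02 and 11 CPM against 14.1 and 10.6 (-0.58 ± 0.22, adjusted p = 0.029), with -1.22 in culture 1 and 0.04 in culture 2, without culture 1 its fitted value was 0.10, and it kept the call in 3 of the 9 alternatives. TUG1, at 94.6 and 104 CPM in heavy polysomes against 135 and 108 in total mRNA (-0.28), and KCNQ1OT1 (0.20) were not called. Of 302 processed pseudogenes 45 were higher and 103 lower (median -0.33), and of the 1358 symbols without an annotation in GENCODE v29, 123 were higher and 617 lower.

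Replication-dependent histone mRNAs, which end in a stem-loop in place of a poly(A) tail, were low in the libraries, and 20 of 71 passed the filter. Of these 19 were lower and none higher (median -1.66), but 9 of the 20 reached 10 counts in both total libraries and in neither heavy library and so had to differ. Of the 9 with 10 counts in every library 8 were lower. Without a term for culture 8 were called lower, and 7 without either culture. The best represented, HIST1H2BK, was at 12 and 8.46 CPM in heavy polysomes against 39.4 and 27.5 in total mRNA (-1.71 ± 0.19). Quantile normalization, on a log2(CPM + 1) scale that understates low genes, gave a median of -0.77 with 20 lower, and DESeq2 called 10.

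Stress-responsive mRNAs with upstream open reading frames, which divert ribosomes from the main start codon in unstressed cells, were mostly low. Of 11 mRNAs of the integrated stress response 6 were lower and 1 higher (median -0.60, 0.63 below genes of like length). ATF4, the transcription factor of that response, was at 269 and 237 CPM in heavy polysomes and 654 and 529 CPM in total mRNA (-1.22 ± 0.23, adjusted p = 4.1e-05). DDIT3, which encodes CHOP, was at 25.1 and 23.0 CPM against 78.6 and 69.2 (-1.62 ± 0.19), and PPP1R15A, which encodes GADD34, at 327 and 397 CPM against 551 and 609 (-0.69 ± 0.23, adjusted p = 0.011). Both heavy libraries were below both total libraries for each of these. ATF5 (-0.64), CEBPB (-0.60) and SLC35A4 (-0.83) were also lower, and EPRS, which is also a tRNA synthetase, was higher (0.88 ± 0.24). The light pool held ATF4 and DDIT3 above total mRNA, with log2 ratios of 0.90 and 0.70. PPP1R15A lost the call in 4 of the 9 alternatives and EPRS in 2, while ATF4 and DDIT3 kept it in all 9. The lower calls of the list numbered 3 without a term for culture, 2 in the fit of all 14 libraries, and 2 and 3 without culture 1 and without culture 2.

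Immediate early and AP-1 mRNAs, which encode short-lived regulators, had 8 of 14 lower and 1 higher (median -0.67). IER3 had -1.33 ± 0.23, EGR1 -1.06, FOS -1.04, JUND -0.83, ATF3 -0.76 and FOSL1 -0.66 ± 0.24. FOSL2 was higher at 0.56 ± 0.23 (adjusted p = 0.031), and FOSL1 and FOSL2 each lost the call in 5 of the 9 alternatives. JUN (-0.05 ± 0.24) and MYC (-0.17 ± 0.23) were not called, and MYC was at 245 and 135 CPM in heavy polysomes against 208 and 200.1 in total mRNA. Without a term for culture edgeR called none lower (4 at an unadjusted p under 0.05), and without culture 1 and without culture 2 the lower calls numbered 3 and 2 and in the fit of all 14 libraries 4.

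Ferritin mRNAs were abundant and far lower in the heavy pool than in total mRNA. FTL, the ferritin light chain, was at 1205 and 2934 CPM in heavy polysomes and at 7516 and 8704 CPM in total mRNA (-2.10 ± 0.27, adjusted p = 1.8e-07), and FTH1, the heavy chain, at 752 and 1670.3 CPM against 4239 and 4820.2 (-2.01 ± 0.27, adjusted p = 2.2e-07). Both were lower in culture 1, with log2 ratios of -2.64 and -2.49, than in culture 2, with -1.57 and -1.53. They lay 1.19 and 1.10 below genes of like coding length. With IDS they were the only genes, of the 9127 with at least 10 CPM in total mRNA, whose level was below total mRNA in all 3 pools of both cultures. The log2 ratio to total mRNA was -1.65 for FTL and -1.66 for FTH1 in the moderate pool, and -0.70 and -0.36 in the light pool. IDS, an iduronate sulfatase of the lysosome, had -0.79 and -0.35 in the light pools of cultures 1 and 2. Both ferritin mRNAs carry an iron-responsive element in the 5′ UTR, a hairpin that iron regulatory proteins bind to block initiation, and the windows shown hold the CAGTG of its loop in capitals (GENCODE v29, GRCh38).
FTH1, CAGTG from base 71 of the transcript: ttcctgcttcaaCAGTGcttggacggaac
FTL, CAGTG from base 47 of the transcript: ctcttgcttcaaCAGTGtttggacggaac
The letters CNNNNNCAGTG, searched on the transcript strand, were in 1019 of the 11992 5′ UTRs of tested protein-coding genes (8.50%), with a median log2 ratio of 0.01. Of the 7 tested mRNAs listed with an iron-responsive element 3 were lower and 2 higher (median 0.01). Beside the ferritins among those listed with an iron-responsive element, SLC40A1, the iron exporter, was lower (-1.11), EPAS1 and SLC11A2 were at 0.01 and 0.03, and the transferrin receptor TFRC (1.16 ± 0.24) was higher. TFRC carries its elements in the 3′ UTR, where they protect the mRNA from decay, and it was at 601 and 1033 CPM against 333 and 374.

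Of 9 polyamine genes, several of which are known for control at the level of translation, 5 were lower and none higher (median -0.51). Library size gave 8 lower, and without culture 1 and culture 2 there were 3 and 1. The antizyme OAZ1, whose translation needs a frameshift, was at 265 and 273 CPM in heavy polysomes against 566 and 565 (-1.07 ± 0.23, adjusted p = 1.9e-04), SAT1 had -1.45 ± 0.19 and SRM -1.21. ODC1 was near the threshold (-0.51 ± 0.22, adjusted p = 0.049) and lost the call in 6 of the 9 alternatives, and OAZ1 lost it without either culture. AMD1 (-0.24) and AZIN1 (0.05) were not called. All 9 lay below genes of like coding length.

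Extracellular matrix and adhesion mRNAs had more higher than lower calls, with higher medians in culture 2 than in culture 1. Of 16 integrin subunits 10 were higher and 1, ITGAE, lower (median 0.80, 0.39 in culture 1 and 1.09 in culture 2). Of 24 collagen chains 14 were higher and none lower (median 0.85, 0.29 and 1.24 in the cultures), and of 10 laminin chains 8 were higher and none lower (median 0.70, 0.23 and 1.18). COL6A1 was at 153 and 757 CPM in heavy polysomes against 88.1 and 269 in total mRNA (1.15 ± 0.24), so that the cultures differed in the level itself, and it lost the call without a term for culture. The laminin alpha 5 chain LAMA5, with the longest coding sequence of its list at 11088 nt, was at 37.8 and 109 CPM against 55.8 and 84.8 (-0.09 ± 0.21), with ratios of -0.56 in culture 1 and 0.37 in culture 2. Without a term for culture the higher calls were 4 integrins, 1 collagen and 0 laminins, and with culture 1 alone 0, 2 and 0. At an unadjusted p under 0.05, 2 laminins were higher without that term, and 6 integrins and 2 laminins with culture 1 alone. Against genes of like length the medians were 0.15, 0.21 and 0.09. The 16 mRNAs that the study listed as its main examples, chosen on these same samples and so no independent evidence, had 14 higher and none lower (median 0.89), with ITGAV highest and with JUN and MYCL (-0.88) not called. With culture 1 alone 4 of the 14 were called, and without a term for culture 5.

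Motor and chromatin genes, long as a rule, showed the same gap between the cultures. Of 61 kinesins, myosins and dyneins 33 were higher and 4 lower (median 0.65, 0.34 in culture 1 and 0.99 in culture 2), and without a term for culture 15 were higher and 2 lower and with culture 1 alone 4 and 1. MYO6 had 1.32 ± 0.20, whereas MYH9, nonmuscle myosin IIA, was at 863 and 1772 CPM in heavy polysomes against 899.6 and 961 and was not called (0.41 ± 0.25). Of 42 chromatin modifiers and remodelers 31 were higher and none lower (median 0.67, 0.29 and 1.02 in the cultures), led by the ISWI ATPase SMARCA5 (1.13 ± 0.23), and without a term for culture 9 were higher, with library size 18 and with culture 1 alone 2. MYO6 and SMARCA5 lost the call with culture 1 alone. Both lists were close to genes of like length, at 0.03 and 0.11.

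Zinc finger ZNF genes went against their length. With a median coding sequence of 1728 nt, 36 of 431 were higher and 128 lower (median -0.26 in both cultures). Over all genes 27.5% were higher and 30.1% lower, so the share of lower calls was near that of all genes and the share of higher calls was smaller. Of the 431, 384 lay below genes of like length, and the median difference of the list was -0.55. In 4 genes 10 counts were reached in both total libraries and in neither heavy library, so these had to differ. Of the 418 with 10 counts in every library 124 were lower. ZNF143 had 1.11 ± 0.18, and ZNF593, with 405 nt, had -1.60 ± 0.19. ZNF146, with the highest CPM of the list in total mRNA, was not called (-0.43 ± 0.21). The fit of all 14 libraries called 40 of the list higher and 37 lower. The lower calls numbered 42 with DESeq2, 231 with library size, 25 without a term for culture and 18 and 9 without culture 1 and culture 2, and the higher ones 14 with library size, 5 without that term and 10 and 8 without culture 1 and culture 2, so that the count depends on the scaling and the test, while the median stayed below 0 in all 9 alternatives.

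RNA-processing and cell-cycle lists were mixed. Of 33 SR proteins and hnRNPs 14 were higher and 3 lower (median 0.42, 0.70 in culture 1 and 0.17 in culture 2). The large hnRNPs HNRNPU (1.23 ± 0.25) and HNRNPM (1.23) were highest. The splicing factor SRSF3 was lowest (-0.62 ± 0.23) and lost the call in 5 of the 9 alternatives. The higher calls fell to 8 without a term for culture and 7 without culture 1. The lower calls were 0 in edgeR without a term for culture, without culture 1, without culture 2 and in the fit of all 14 libraries (2, 2, 0 and 0 at an unadjusted p under 0.05), and DESeq2 called 1. Of 17 cyclins and cell-cycle kinases 5 were higher, near the 27.5% of all genes, led by CCNB1 (0.90 ± 0.24), and 2 lower, CDK4 (-0.81) and the inhibitor CDKN1A (-1.18 ± 0.18). The median of this list was 0.42 in culture 1 and -0.05 in culture 2. Library size and quantile normalization each gave 2 higher and 3 lower, and dropping the term for culture left 2 higher and 2 lower. Of 13 nonsense-mediated decay factors 7 were higher, among them UPF2 (0.98), UPF1 (0.95) and UPF3B (0.95), and 2 lower, the small exon junction proteins RBM8A (-0.98 ± 0.22) and MAGOH (-0.78), and with culture 1 alone 2 were called higher.

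Lists of the secretory pathway and of sterol synthesis had more higher than lower calls. Of 20 ER chaperones and unfolded protein response genes 12 were higher and 2 lower (median 0.76), with CANX at 1337 and 2319 CPM in heavy polysomes against 644 and 794 (1.30 ± 0.25) and PDIA3 at 1.30 ± 0.24, and with SDF2L1 (-1.07 ± 0.18) and XBP1 (-0.60) lower. With no term for culture 1 of the 12 was called, and with culture 1 alone 6. Of 30 translocation and coat genes 17 were higher and 9 lower (median 0.77), with 11 higher and 5 lower without a term for culture and 11 and 3 with culture 1 alone. SRP54, the GTPase of the signal recognition particle, had 1.30 ± 0.21 and SEC61A1, the pore of the translocon, 0.86. Small subunits of the same complexes were lower, with SEC61G at -2.21 ± 0.19, SEC61B at -1.91 and SRP9 at -1.22. The 9 lower genes of the whole list have coding sequences of 207 to 927 nt, against 1431 to 3702 nt for the 17. Of 25 genes of cholesterol synthesis and uptake 12 were higher and 1 lower (median 0.47, 0.52 in culture 1 and 0.18 in culture 2), with DHCR7 highest at 1.01 ± 0.20. The higher calls fell to 2 without a term for culture and 7 without culture 1, and library size gave 8 higher and 6 lower.

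The other pools place these mRNAs on the gradient. The rho with coding length was 0.64 for heavy, -0.41 for moderate and -0.62 for light polysomes over total mRNA. In the direct paired test of heavy against light polysomes, in which total mRNA cancels, 9155 of 14852 genes differed (61.6%), 4399 higher in heavy (29.6%) and 4756 lower (32%). All 20 aminoacyl-tRNA synthetases and 18 of 19 cytosolic chaperones were higher there, and all 23 snoRNA hosts were lower. Of 20 histones 9 reached 10 counts in both light libraries and in neither heavy library and so had to differ, and the 9 with 10 counts in all of these libraries were lower. Mitochondrial ribosomal proteins were above total mRNA in both lighter pools, with medians of 0.62 and 0.51 in the moderate pool of cultures 1 and 2 and 0.42 and 0.53 in the light pool. Histones (-0.78) and snoRNA hosts (-1.33) were below it in the moderate pool and above it in the light pool (0.76 and 0.43). The moderate pool value of the histones was -0.34 in culture 1 and -1.15 in culture 2. The light pool value of the snoRNA hosts was 0.94 in culture 1 and -0.08 in culture 2.

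**Figure D5:**
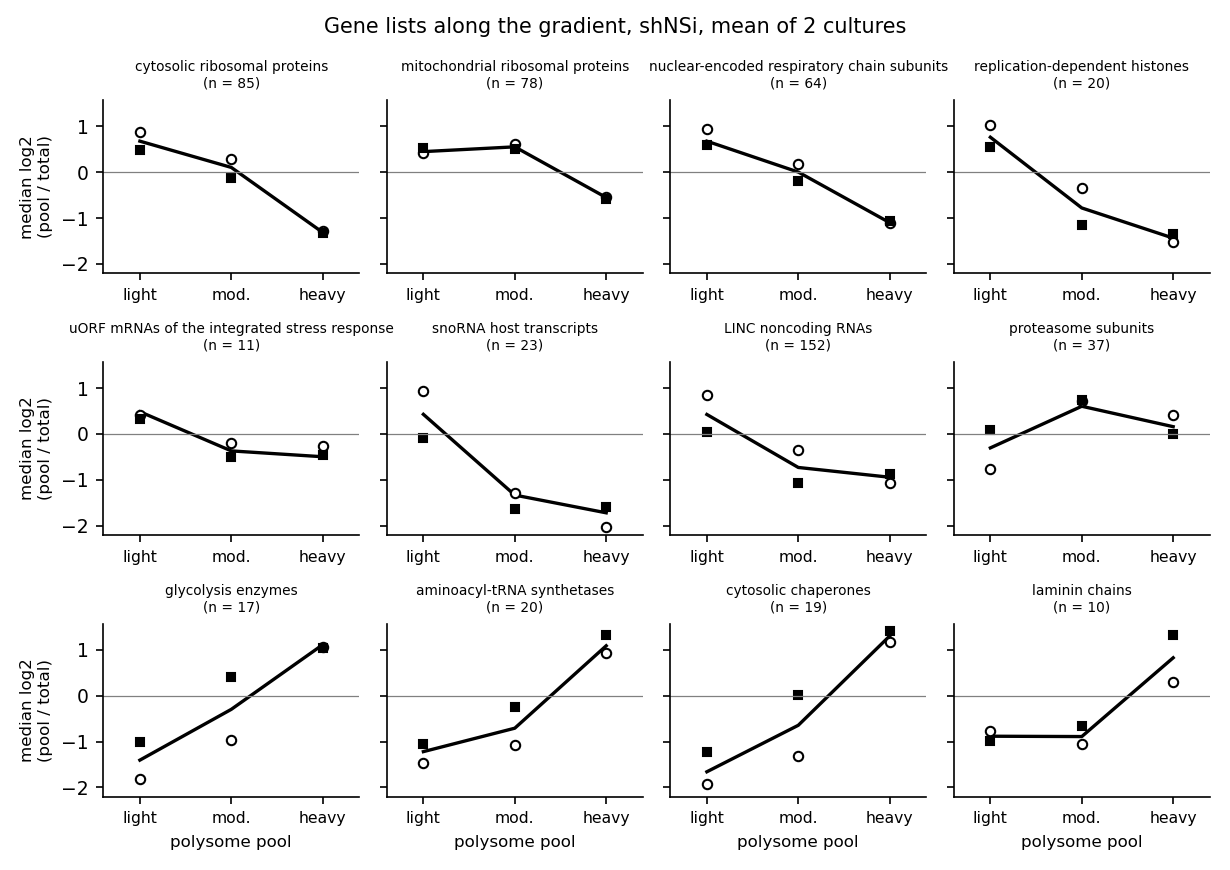
Median log2 ratio of the light, moderate and heavy polysome pools to total mRNA (y axis) for 12 gene lists in the shNSi cultures, as the mean of the cultures (line) and in culture 1 (open circles) and culture 2 (filled squares). Glycolysis enzymes, aminoacyl-tRNA synthetases, cytosolic chaperones and laminins are highest in the heavy pool, proteasome subunits and, in the mean and in culture 1, mitochondrial ribosomal proteins in the moderate pool, and cytosolic ribosomal proteins, respiratory chain subunits, histones, stress mRNAs and noncoding lists in the light pool.

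Sequence features around the start codon went with small differences. Upstream ATG codons in the 5′ UTR of the principal transcript were absent in 5631 protein-coding genes, whose median log2 ratio was 0.14, and the median was 0.08 with 1, -0.01 with 2 and -0.06 with 3 or more, over 2627, 1341 and 2393 genes. Against genes of like coding length the medians were 0.11, -0.02, -0.11 and -0.16. The 5394 genes with a purine at -3 and a G at +4 of the start codon had a median of 0.10, and the 760 with neither had -0.05. With no upstream ATG 34.8% were called higher and 24.6% lower, and with 3 or more 25.2% and 28.8%. For the start codon context the shares were 33.5% and 26.3% with both bases and 24.1% and 26.6% with neither. The differences between medians are small beside the SD of single genes of 0.85, which is not a spread of medians. They rest on annotated transcripts and were not tested.

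With length set aside in this way, the mRNAs farthest above and below their class, chosen after their values were seen, were as follows. Among mRNAs with at least 10 CPM in total mRNA, CHTF8 lay 1.64 above its class, NDUFV3 1.52, LAMP2 1.41, AHNAK 1.41, DYNLL2 1.39 and METTL15 1.38. Of these LAMP2 and METTL15 were called higher, and the log2 ratios of CHTF8 (0.29), NDUFV3 (-0.04) and DYNLL2 (-0.17) were not called. The place of AHNAK rests on an annotated principal coding sequence of 450 nt, which need not be that of the mRNA counted. Its log2 ratios were -0.24 in culture 1 and 0.91 in culture 2. In cultures 1 and 2 they were -1.51 and -1.41 in the moderate pool and -1.69 and -2.57 in the light pool. The medians of coding sequences of 300 to 600 nt there were -0.05 and 0.68. The farthest below were ITGAE (-2.97), MAP3K13 (-2.35), CAMTA1 (-2.20), the clathrin adaptor AP1M2 (-2.15), FAM200B (-2.12), ICAM3 (-2.10) and the keratin KRT10 (-2.09). AP1M2 was at 22.0 and 17.9 CPM in heavy polysomes against 102 and 64.3 in total mRNA (log2 ratio -2.03 ± 0.20), and KRT10 at 17.5 and 14 CPM against 51.9 and 58.1 (-1.81 ± 0.19).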

How the data were processed

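Total, light, moderate and heavy polysome RNA of 2 shNSi cultures was sequenced by the study, with single reads. The authors deposited raw read counts per gene symbol, and the submitters' processing notes name STAR 2.6.0a and hg19. The name of the deposited table refers to featureCounts and holds the letters rev, which may mean reverse-strand counting or a revision. Beyond this the annotation, the strand setting and the treatment of multi-mapping reads are not given in the sources used here. Some members of the lists are counted but not reported by name here. Library totals were 25899838 to 30795910 counts.

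The 4 heavy polysome and total mRNA libraries were analysed in R 4.3.3 with edgeR 4.0.16 (TMM, robust quasi-likelihood test, Benjamini-Hochberg adjustment over all genes tested, threshold 0.05) with terms for culture and fraction, for genes with at least 10 counts in 2 or more libraries. Heavy and light polysomes were tested likewise. Cultures were paired because the libraries of a culture share its run code in the deposited table, and deviations from the group means correlated at 0.58. Per-culture ratios are differences of log2 CPM with a prior count of 2. The study describes its data as 2 complete sets, each performed independently. Nothing in the labels says how the 2 cultures were kept apart, so p-values measure the spread between these samples. Of the genes tested, 13280 matched a GENCODE v29 name (GRCh38), 3 an older symbol and 1358 none. Of the symbols tested 22 had been turned into dates. Lengths and sequences come from GENCODE v29 and RefSeq, a build other than hg19, matched by symbol.

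Named were the 10 highest and 10 lowest called protein-coding genes with at least 10 CPM in total mRNA and the same direction in both cultures, and the lowest called long noncoding RNAs by the same criteria. Also named were the members of each list with the highest CPM in total mRNA and with the highest and lowest ratio, and fixed reference genes. Others of a list are given as examples, and genes chosen after their values were seen are marked. The lists and the comparison were chosen with earlier results of these data known. Alternatives were DESeq2 1.42.0, library size without TMM, limma 3.58.1 on log2(CPM + 1) quantile normalized in each fraction separately, 2 other count filters, no term for culture, all 14 libraries in 1 fit, and each shNSi culture left out of that fit. The authors' moderate pool was used for description.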

Additional observations from a re-analysis of the deposited data

How the results depend on the processing

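For heavy polysome over total mRNA, 8439 genes were called, 4028 higher and 4411 lower. DESeq2 called 2594 lower, and the fit of all 14 libraries 2459 lower. Library size without TMM gave 2514 higher and limma on quantile-normalized values 2539 higher. With no replicate block, which drops the pairing by culture, 3408 genes were called, 1426 higher and 1982 lower, and all 3408 were among the 8439 with the same direction. With 1 shNSi culture left out of the fit of all libraries, so that the lone culture is assumed to vary like the shDAP5 cultures, 2545 to 4011 genes were called, 1451 to 2200 higher and 1094 to 1811 lower. MALAT1 ranged from -1.04 without culture 2 to 0.10 without culture 1. No gene called in both the reported fit and an alternative changed direction. The counts for heavy against light polysomes stayed within 1.5 times in each alternative, from 7823 to 10455 called. Among the genes named, 29 lost the call with no replicate block, 41 without culture 2, 21 without culture 1, 11 under quantile normalization and 9 under DESeq2. Named genes not called in the reported fit also gained a call, 9 under library size, 8 under quantile normalization, 2 with no filter on low counts and 1 under DESeq2. The longest coding sequence of each gene in place of the principal one, chosen after the data were seen, gave medians from -1.63 under 300 nt to 0.65 between 3000 and 4500 nt. Genes near 10 counts, such as KCNE5, rest on few reads, and every gene rests on 2 cultures. The exact permutation test of 2 against 2 values cannot go below p = 0.33, so no single-gene permutation test was run. The causes of these changes were not tested.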
